A study of Mus musculus with 16 samples.

Results

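AML246 cells that had been taken off doxycycline for 8 days were compared with AML246 cells that had never received it, across all genes. AML246 is a mouse acute myeloid leukaemia line, grown here with interleukin-3, and per the series title PU.1 was restored and knocked down in it, here through doxycycline. The cells 8 days off had first received 0.1 µg/mL doxycycline for 12 days, so they were harvested on course day 20; the untreated cells are the day 0 sample. The comparison was defined by the titles alone and used no measured value. It holds 2 libraries of each condition, A and B, which is 4 of the 16 libraries of the course. The other groups used here are total cells at day 12 of doxycycline and cells 4 and 12 days off. All of these libraries came from viable cells sorted without a further marker. Only the Cd11b-high sort at day 12 used one. The labels do not name the construct that answers to doxycycline, nor say whether the line is 1 clone. They do not say whether A and B are separate cultures, so p-values measure a spread between libraries that may be technical.

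PU.1, encoded by Spi1, is an ETS-family transcription factor that drives granulocyte and macrophage maturation, and Itgam encodes Cd11b, a surface integrin that appears as myeloid cells mature. Hypoxia-inducible factor (HIF) is a pair of an alpha subunit (from Hif1a or Epas1) and its partner Arnt. While oxygen is plentiful, prolyl hydroxylases encoded by Egln1, Egln2 and Egln3 mark the alpha subunit, and the Vhl protein then sends it for destruction. When oxygen is scarce the alpha subunit persists, and HIF binds a short core in the promoters of genes for glucose uptake, glycolysis, mitochondrial turnover and secreted growth factors. Egln3 and Egln1 are HIF targets themselves, which makes them part of a feedback loop.

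Levels are CPM, the counts of a gene scaled to a common library size, after TMM normalisation, which scales library sizes by the bulk of the genes. Total counts in the 4 libraries ran from 12962801 (day 0 B) to 21809646 (8 days off B), and from 12962801 to 26509803 over the course. Day 0 B was thus the shallowest library of all. The day 0 pair also had 7.36% and 6.35% of its counts on mitochondrially encoded genes, against 2.02% to 3.59% in the other 14 libraries. A technical difference between day 0 and every later harvest and an effect of the doxycycline course cannot be told apart. A log2 fold compares 8 days off with day 0 and carries the standard error (SE) of 1 edgeR fit over all 16 libraries. A gene is described as higher, lower, risen or fallen only where its edgeR adjusted p was under 0.05, and is otherwise described as not called.

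Of 13652 genes tested, 4525 (33.1%) were called, with 2217 higher (16.2%) and 2308 lower (16.9%) 8 days off than at day 0. The other 9127 genes (66.9%) were not called, which does not show that they had returned to the day 0 level. Most called differences were small, with a median size of 0.64 on the log2 scale. Past 2-fold, 468 genes were higher (3.43%) and 619 lower (4.53%), and past 4-fold 118 were higher and 103 lower. The counts depended on the number of libraries. Without 8 days off A they were 1480 higher and 1411 lower, without 8 days off B 1262 and 1271, without day 0 A 1336 and 1373, and without day 0 B 1565 and 1820. The count of genes lower by more than 2-fold was 402 without day 0 A.

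The libraries of day 12 and of 12 days off, none of which enter the comparison, were used to sort the called genes. Between day 12 and 12 days off 65.3% of all genes were called. Of all genes tested, 4425 (32.4%) fell, 4492 (32.9%) rose and 4735 (34.7%) were not called. Among the 2217 genes higher 8 days off than at day 0, 788 (35.5%) fell between day 12 and 12 days off and 815 (36.8%) rose. Among the 468 that were higher by more than 2-fold, 118 (25.2%) fell and 243 (51.9%) rose. Most of the rises past 2-fold thus belonged to genes that also went up, in other libraries, after doxycycline was removed. Among the 619 genes lower by more than 2-fold, 217 (35.1%) fell between day 12 and 12 days off, 141 (22.8%) rose and 261 (42.2%) were not called. Seen from the other comparison, the 815 genes were 18.1% of all that rose between day 12 and 12 days off, and the 788 were 17.8% of all that fell. These shares are a description beside the background of all genes, and no test of the overlap was made.

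Spi1, which encodes the factor that the series manipulates, stood near its starting level. Spi1 (chromosome 2, 91082374 to 91115759, GRCm38) stood at 66.3 and 56.8 CPM in the day 0 libraries A and B. It stood at 229 and 248 CPM after 4 days of doxycycline, 186 and 208 CPM after 8 days and 226 and 219 CPM after 12 days, with 229 and 244 CPM in the Cd11b-high sort. Off doxycycline it was 65.0 and 56.6 CPM at 4 days, 48.1 and 44.8 CPM at 8 days and 54.8 and 37.2 CPM at 12 days. All libraries on doxycycline lay far above the rest, and both libraries 8 days off lay below both at day 0. That last difference was not called (log2 fold -0.41, SE 0.15, edgeR adjusted p = 0.0506). Over the alternatives its adjusted p ran from 0.00288 to 0.296, and it was under 0.05 with library size as the only scaling, with a replicate block and when only the 4 compared libraries were fitted.

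Itgam had nearly, but not wholly, returned. It stood at 1.41 and 1.77 CPM at day 0, at 719.5 and 669.5 CPM at day 12 and at 4.23 and 5.34 CPM 8 days off. Both libraries 8 days off exceeded both at day 0, a 3.05-fold difference (log2 fold 1.61, SE 0.28, edgeR adjusted p = 0.00056). At 12 days off its level was 1.08 and 1.505 CPM. The PU.1 target list, of which Itgam is a member, was mixed. Of 28 measured members 9 were higher (32.1%, against 16.2% of all genes) and 7 lower. The 7 lower members were also a larger share than the 16.9% of all genes. The median log2 fold of the list was -0.03, against -0.01 over all genes. Tyrobp, an adaptor of activating receptors, stood at 5.599 and 3.76 CPM at day 0, 193 CPM on average at day 12 and 11.4 and 11.8 CPM 8 days off (log2 fold 1.28, SE 0.17, edgeR adjusted p = 9.5e-05). Ncf1, a subunit of the phagocyte NADPH oxidase, went from 23.4 and 24.9 to 44.2 and 41.5 CPM (log2 fold 0.83, SE 0.10, edgeR adjusted p = 3.6e-05), against 423 CPM at day 12. In both genes the 8 days off libraries lay above day 0 without overlap and far nearer to day 0 than to day 12. In the other direction Csf3r, the receptor for granulocyte colony-stimulating factor, fell from 129.9 and 139 to 68.4 and 84.9 CPM (log2 fold -0.81, SE 0.13, edgeR adjusted p = 0.00028), below its day 12 mean of 165 CPM.

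Among the 34 gene lists described here, the hypoxia genes had the highest share of rises, at 86.2%. Of 33 genes listed as hypoxia and HIF targets, 29 were measured, and 25 of them were higher 8 days off, 1 was lower and 3 were not called. Their median log2 fold was 1.42, and 17 were past 2-fold. Both values stand beside a background of 16.2% higher and a median of -0.01 over all genes. Summed over the list, the level was 2394 and 2400 CPM at day 0 and 5924 and 4893 CPM 8 days off, so that the groups did not overlap and library A was the higher of the 8 days off pair. At day 12 the sum was 3035 and 3048 CPM, and 4 days off it was already 5003 and 3670 CPM. Leaving out any 1 of the 4 libraries left between 21 and 23 members higher. The list was assembled with earlier results of these data in view.

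Egln3, a HIF prolyl hydroxylase, was the marker set for this comparison. It stood at 56.0 and 53.6 CPM at day 0, 55.7 and 56.3 CPM at day 12, 192 and 119.7 CPM 4 days off, 370.4 and 301 CPM 8 days off and 409 and 412 CPM 12 days off. No library of total cells at day 0 or day 12 exceeded 56.3 CPM, the Cd11b-high sort at day 12 had 58.1 and 59.0 CPM, and no library after withdrawal was below 119.7 CPM. The rise over day 0 was 6.13-fold (log2 fold 2.61, SE 0.17, edgeR adjusted p = 3.1e-07). Egln1, the main oxygen sensor of most cells, followed the same course, with 40.0 and 42.3 CPM at day 0, 51.9 CPM at day 12 and 219 and 184 CPM 8 days off (log2 fold 2.29, SE 0.15, edgeR adjusted p = 3.1e-07). Egln2, the third prolyl hydroxylase, stood at 76.7 and 69.4 CPM at day 0 and 67.1 and 73.7 CPM 8 days off, and was not called (adjusted p = 0.751 in edgeR). The 2 libraries of each group overlapped for Egln2 but for neither Egln1 nor Egln3.

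Promoter sequences are shown for 4 of the genes of the list that rose more than 4-fold, picked after their values were seen, since HIF acts through a core that can be read in them. They run from 250 bases before to 50 bases after the start of the gene, 5′ to 3′ on the gene's own strand, from RefSeq on GRCm38.p6. The positions are chr12:54203825-54204124 for Egln3, chr11:31370012-31370311 for Stc2, chr8:45999801-46000100 for Ankrd37 and chr7:138909457-138909756 for Bnip3, all on the minus strand. Capitals mark the hypoxia response core, ACGTG or GCGTG, on either strand (CACGT or CACGC on the other); where matches overlap, as in CACGTG, their letters run together.
Egln3: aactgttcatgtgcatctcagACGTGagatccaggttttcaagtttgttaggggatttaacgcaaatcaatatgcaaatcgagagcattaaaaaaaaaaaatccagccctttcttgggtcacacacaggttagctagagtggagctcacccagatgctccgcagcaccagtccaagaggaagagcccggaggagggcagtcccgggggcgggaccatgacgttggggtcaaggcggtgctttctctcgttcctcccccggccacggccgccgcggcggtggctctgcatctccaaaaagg
Stc2: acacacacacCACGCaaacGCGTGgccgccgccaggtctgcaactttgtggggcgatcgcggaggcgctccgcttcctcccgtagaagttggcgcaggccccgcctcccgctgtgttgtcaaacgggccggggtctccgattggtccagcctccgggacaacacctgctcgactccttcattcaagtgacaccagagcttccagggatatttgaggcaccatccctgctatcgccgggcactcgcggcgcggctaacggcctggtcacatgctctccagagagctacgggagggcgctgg
Ankrd37: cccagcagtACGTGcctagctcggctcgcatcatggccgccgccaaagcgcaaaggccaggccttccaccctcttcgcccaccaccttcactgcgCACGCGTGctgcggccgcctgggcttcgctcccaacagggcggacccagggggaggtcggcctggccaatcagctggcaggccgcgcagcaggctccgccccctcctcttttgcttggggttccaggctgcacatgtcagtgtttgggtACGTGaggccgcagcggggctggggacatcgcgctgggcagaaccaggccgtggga
Bnip3: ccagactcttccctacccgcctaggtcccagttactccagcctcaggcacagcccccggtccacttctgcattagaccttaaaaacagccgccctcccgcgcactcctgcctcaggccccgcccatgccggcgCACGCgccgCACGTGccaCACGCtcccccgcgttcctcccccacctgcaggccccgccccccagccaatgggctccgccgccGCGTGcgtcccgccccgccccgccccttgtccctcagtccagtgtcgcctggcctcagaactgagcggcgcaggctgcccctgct
The Egln3 window holds 1 match of the core, Stc2 holds 2, Ankrd37 holds 4 and Bnip3 holds 5.

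The core is short and common. A promoter entry was found for 10257 of the measured genes, and 6786 of those windows (66.2%) held the core. It was in 23 of the 23 hypoxia list members with an entry and in 21 of 24 members of the glycolysis list (87.5%). Among genes higher 8 days off it was in 1234 of 1692 (72.9%), and among genes lower in 1053 of 1767 (59.6%). A second motif, the PU.1 site GAGGAAGT on either strand, was in 399 of all 10257 windows (3.89%), in 58 of the genes higher (3.43%) and in 73 of the genes lower (4.13%). The 3 shares of the PU.1 site thus lay within about 1 percentage point of each other. A match is only a run of letters in the window and does not show binding.

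Of 11 measured oxygen sensors and HIF subunits, 7 were higher (63.6%, against 16.2% of all genes) and 0 lower. Besides Egln1 and Egln3 these were Vhl and Arnt, with log2 folds of 0.38 and 0.34, and Hif3a, Epas1 and Arnt2. Arnt lost its call whichever of the compared libraries was left out, and Vhl lost its call without 8 days off A or without day 0 A. Epas1, the second alpha subunit, had 0.544 and 0.221 CPM at day 0 (10 and 3 reads), 5.70 CPM at day 12 and 1.08 and 1.63 CPM 8 days off (log2 fold 1.74, SE 0.42, edgeR adjusted p = 0.00571), and its adjusted p was 0.0633 without 8 days off B in edgeR. Arnt2, a relative of Arnt, had 1 and 3 reads at day 0 and 15 and 10 reads 8 days off (edgeR adjusted p = 0.0321, and 0.272 without day 0 A). Both genes were thus low in all 4 libraries. Hif1a, the main alpha subunit, stood at 183 and 222 CPM at day 0 and 256 and 262 CPM 8 days off. Both libraries 8 days off exceeded both at day 0, yet the difference was not called (log2 fold 0.36, SE 0.14, edgeR adjusted p = 0.0556); over the alternatives the adjusted p ran from 0.00439 to 0.353 and was under 0.05 in 8 of 13. At day 12 Hif1a had been higher still, at 440.1 CPM. Hif3a, an inhibitory family member, went from 20 and 22.2 to 38.9 and 36.3 CPM (log2 fold 0.84, edgeR adjusted p = 0.00404, and 0.0525 without day 0 A). Without day 0 A 3 of the 11 were higher, and without 8 days off A 4. Hif1an, which encodes the asparagine hydroxylase of HIF, was not called (adjusted p = 0.207 in edgeR).

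Genes of mitochondrial turnover and adenylate handling rose. Bnip3, a mitophagy receptor, stood at 100 and 106 CPM at day 0 and 525 and 382 CPM 8 days off (log2 fold 2.14, SE 0.22, edgeR adjusted p = 1.4e-05). Its relative Bnip3l went from 96.5 and 118 to 201 and 172 CPM (log2 fold 0.80, SE 0.16, edgeR adjusted p = 0.00169). Ak4, a mitochondrial adenylate kinase, went from 1.52 and 1.40 to 20.7 and 19.3 CPM, 13.6-fold higher (log2 fold 3.76, SE 0.40, edgeR adjusted p = 3.9e-05), after 0 reads in both libraries at day 12. None of these groups overlapped, and for Ak4 every library at day 12 lay below day 0 and every library off doxycycline above it. Pdk1, a pyruvate dehydrogenase kinase, rose from 49.4 and 55.2 to 178 and 161 CPM (log2 fold 1.70, SE 0.15, edgeR adjusted p = 3.6e-06). Fam162a, a mitochondrial protein linked to hypoxic cell death, rose from 53.9 and 50.3 to 136 and 94.8 CPM.

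Secreted and matrix-modifying genes of the list moved as well. Stc2, encoding the glycoprotein hormone stanniocalcin, stood at 9.51 and 12.7 CPM at day 0 and 109.6 and 104 CPM 8 days off, 9.69-fold higher (log2 fold 3.28, SE 0.24, edgeR adjusted p = 7.1e-07). At day 12 it had stood at 7.003 CPM, so the level 8 days off exceeded every earlier point of the course that is given here. Vegfa, the endothelial growth factor, rose from 139 and 153 to 290.5 and 262 CPM (log2 fold 0.92, SE 0.13, edgeR adjusted p = 0.00014). P4ha1, a collagen prolyl hydroxylase, rose from 92.5 and 86.5 to 322 and 277 CPM, and Plod2, a collagen lysyl hydroxylase, from 3.21 and 3.91 to 10.1 and 10.2 CPM. Ero1a, an oxidase of the endoplasmic reticulum, rose from 229 and 223 to 830.5 and 607 CPM. All 5 of these genes had 8 days off libraries wholly above day 0.

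Among the other members, Ndrg1 rose from 19.6 and 15.8 to 114 and 69.0 CPM and Ankrd37 from 7.28 and 7.97 to 57.6 and 33.9 CPM (log2 fold 2.59, SE 0.40, edgeR adjusted p = 0.00049). In both genes library A was the higher of the 8 days off pair. Bhlhe40, a transcriptional repressor, rose from 36.6 and 40.0 to 115 and 90.4 CPM. Selenbp1, Hmox1, Mxi1 and Narf were also called higher, with log2 folds of 1.65, 0.98, 0.69 and 0.58. Kdm3a and P4ha2 were called higher but lost the call whichever of the 4 libraries was left out; Ddit4 and Higd1a lost it without some of them. Their highest adjusted p over the alternatives was 0.268 for Ddit4, 0.221 for Kdm3a and 0.134 for Higd1a, each without 8 days off A, and 0.146 for P4ha2 without day 0 A. Slc2a3, Cited2 and Ankzf1 were not called, with log2 folds of 0.18, 0.14 and -0.19. Rora, a nuclear receptor, was the only member lower, at 0.924 and 0.664 CPM at day 0 and 0.141 and 0.177 CPM 8 days off (edgeR adjusted p = 0.00394, and 0.0504 without day 0 A).

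Most of the genes of glycolysis rose. Of 25 measured genes 18 were higher (72.0%, against 16.2% of all genes), 3 lower and 4 not called, with a median log2 fold of 1.25. The glucose transporter Slc2a1 stood at 88.0 and 77.0 CPM at day 0 and 344 and 308 CPM 8 days off (log2 fold 1.98, SE 0.14, edgeR adjusted p = 6.5e-07). Aldoc, an aldolase, rose from 25.01 and 21.4 to 161 and 138 CPM (log2 fold 2.68, SE 0.20, edgeR adjusted p = 6.5e-07). Eno1, an enolase, rose from 249.6 and 225 to 1027 and 981 CPM (log2 fold 2.08, SE 0.16, edgeR adjusted p = 9.8e-07); it has a near-identical copy, Eno1b, and reads may have been split between them. Slc16a3, which exports lactate, rose from 211 and 171 to 622 and 611 CPM (log2 fold 1.69, SE 0.12, edgeR adjusted p = 6.5e-07). In all 4 genes each library 8 days off exceeded each at day 0. The 3 lower genes were Pfkfb1, Pfkfb4 and Eno2, and the 4 not called were Gapdh, Slc2a3, Pfkfb2 and Pfkfb3; apart from Slc2a3, these were named after their values were seen. Summed over the list, the level was 4952 and 4263 CPM at day 0, 6848 and 6772 CPM at day 12, and 12400 and 11480 CPM 8 days off.

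**Figure D1:**
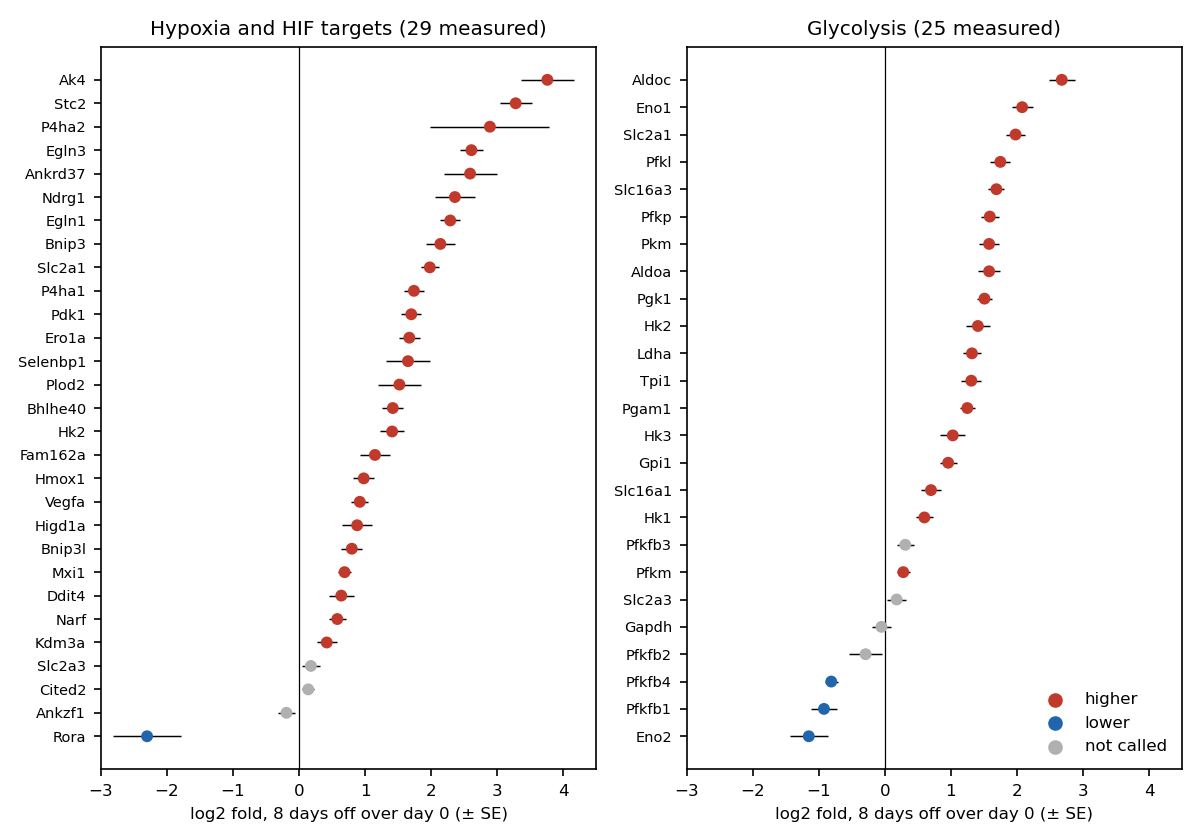
The log2 fold of each measured member, 8 days off over day 0, with its SE as a horizontal bar, for the hypoxia list on the left (29 genes) and the glycolysis list on the right (25 genes). Red members are higher (25 and 18), blue are lower (1 and 3) and grey are not called (3 and 4); Slc2a1, Slc2a3 and Hk2 stand in both lists.

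The same genes were measured between day 12 and 12 days off, in libraries that the comparison with day 0 does not share. There 22 of the 29 hypoxia genes rose and 3 fell, with a median log2 fold of 1.36, and 16 of the 25 glycolysis genes rose and 6 fell, with a median of 1.20. The background in that comparison was 32.9% rising and 32.4% falling. Egln3 rose by a log2 fold of 2.87 (SE 0.17, edgeR adjusted p = 4.2e-09) and Slc2a1 by 1.68 (SE 0.14, edgeR adjusted p = 1.2e-07). Slc2a3, a glucose transporter of mature myeloid cells, went the other way with a log2 fold of -2.97 (edgeR adjusted p = 8.1e-11), from 77.0 and 81.8 CPM at day 12 to 9.23 and 10.99 CPM.

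**Figure D2:**
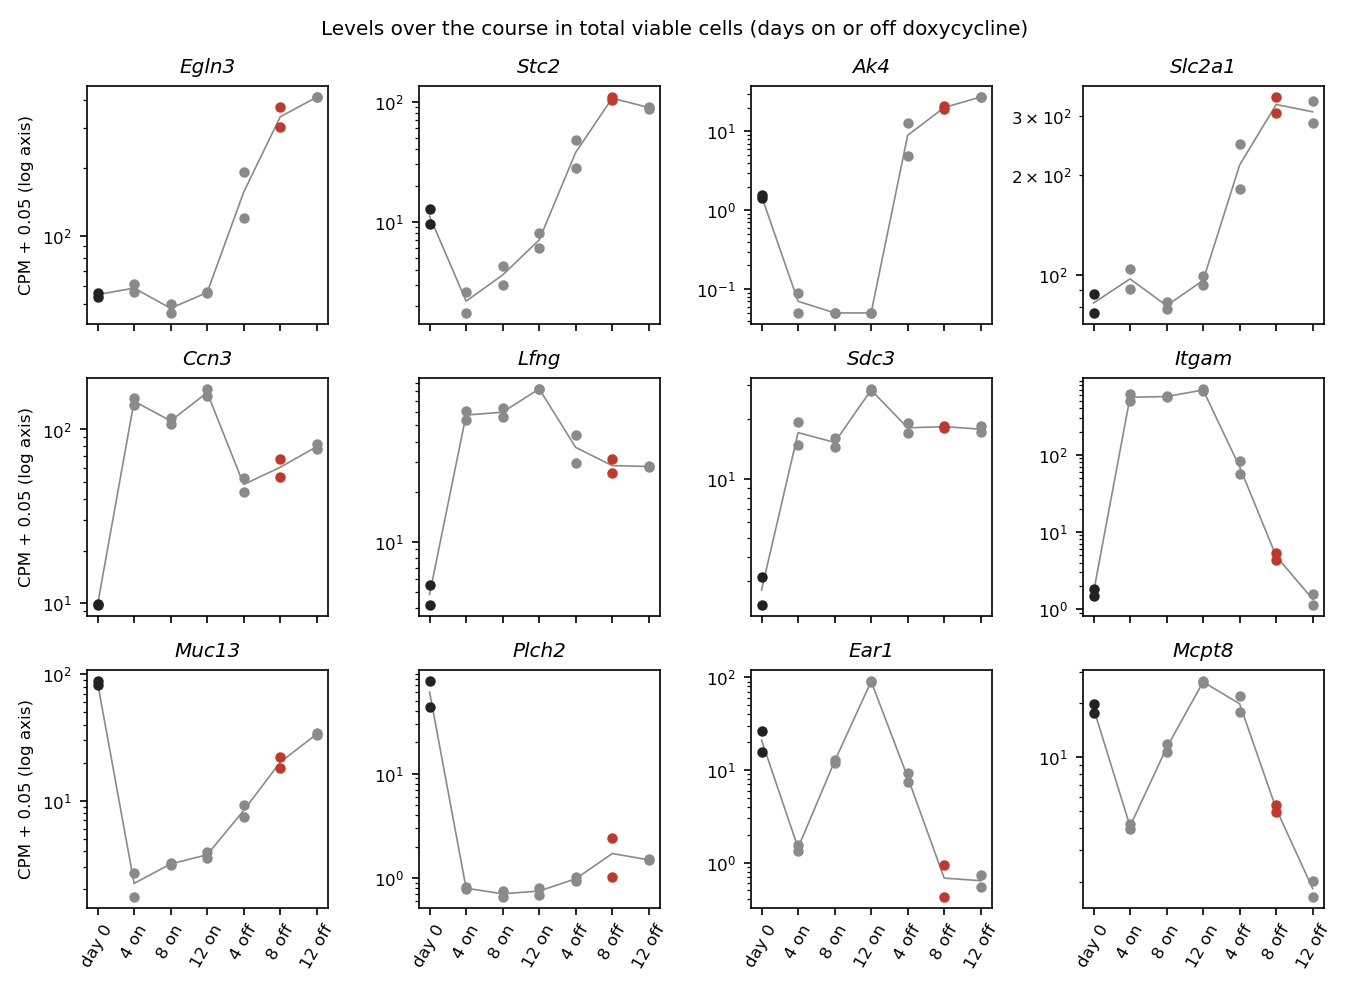
Level of 12 genes in each library of total viable cells, as CPM plus 0.05 on log axes, from day 0 (black) through 4, 8 and 12 days on doxycycline to 4, 8 (red) and 12 days off; lines join the group means. The top row (Egln3, Stc2, Ak4, Slc2a1) is highest after withdrawal, above day 0 and every point on doxycycline. The middle row (Ccn3, Lfng, Sdc3, Itgam) rises on doxycycline and stays above day 0 at 8 days off. In the bottom row (Muc13, Plch2, Ear1, Mcpt8) 8 days off lies below day 0.

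Some of the largest rises among genes of at least 10 CPM lay outside the hypoxia list. Spp1, the secreted phosphoprotein osteopontin, stood at 50.7 and 71.2 CPM at day 0, 414 CPM at day 12, 182 CPM 4 days off and 722 and 588 CPM 8 days off, 10.8-fold its untreated level (log2 fold 3.43, SE 0.17, edgeR adjusted p = 3e-08). Apln, which encodes the peptide ligand apelin, went from 2.07 and 2.73 to 34.6 and 26.4 CPM, 12.9-fold higher (log2 fold 3.69, SE 0.33, edgeR adjusted p = 3.7e-06). Neither gene had overlapping groups, which was a condition of choice for the largest rises. Apln stood at 2.36 CPM at day 12 and 27.0 CPM 4 days off, so that its rise came after withdrawal, whereas Spp1 was raised at day 12 too.

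Other large rises were of genes that stood above day 0 both at day 12 and after withdrawal. Ccn3, a secreted matricellular protein, stood at 9.84 and 9.74 CPM at day 0, 163 CPM at day 12, 48.2 CPM 4 days off and 53.3 and 67.8 CPM 8 days off (log2 fold 2.63, SE 0.14, edgeR adjusted p = 4.2e-08). Lfng, a glycosyltransferase that tunes Notch receptors, went from 5.44 and 4.13 CPM at day 0 through 82.9 CPM at day 12 to 25.9 and 31.4 CPM (log2 fold 2.57, SE 0.19, edgeR adjusted p = 7.1e-07). Sdc3, a cell surface proteoglycan, went from 2.23 and 3.10 CPM through 28.2 CPM to 18.5 and 18.1 CPM (log2 fold 2.80, SE 0.18, edgeR adjusted p = 2.3e-07). For all 3 genes 8 days off lay between day 0 and day 12, above every day 0 library. Between day 12 and 12 days off their log2 folds were -1.03, -1.55 and -0.66, all called lower. Ccn3 nevertheless stood higher at 12 days off, at 77.2 and 81.9 CPM, than in either library 8 days off. Eng, a co-receptor for TGF-beta ligands, stood at 1.58 and 0.516 CPM at day 0, 11.1 CPM at day 12 and 8.47 and 12.8 CPM 8 days off. Dkkl1 stood at 1.79 and 1.55, then 11.3, then 10.2 and 11.3 CPM. Eng and Dkkl1 were not called between day 12 and 12 days off: the log2 fold there was 0.22 for Eng (adjusted p = 0.442 in edgeR) and -0.04 for Dkkl1 (adjusted p = 0.822 in edgeR). For both, a technical difference at day 0 and an effect of the doxycycline course cannot be told apart.

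Among the falls were genes that were already low at day 12 and 8 days off were still below day 0. Plch2, a phospholipase C, stood at 77.3 and 43.5 CPM at day 0, 0.699 CPM at day 12 and 2.35 and 0.971 CPM 8 days off, 36.6-fold lower than day 0 (log2 fold -5.19, SE 0.33, edgeR adjusted p = 2.3e-07). Src, the founding tyrosine kinase of its family, fell from 13.1 and 8.56 to 1.55 and 1.15 CPM (log2 fold -3.01, SE 0.28, edgeR adjusted p = 4e-06), with 0.428 CPM at day 12. Muc13, a membrane mucin found on progenitor cells, stood at 88.9 and 82.2 CPM at day 0, 3.70 CPM at day 12, 22.1 and 18.3 CPM 8 days off and 34.2 and 33.2 CPM 12 days off (log2 fold -2.09, SE 0.15, edgeR adjusted p = 6.5e-07). Plch2 and Src were thus low at day 12 and after withdrawal, while Muc13 was low at day 12 and stood part of the way back. For genes low at every later harvest, a technical difference at day 0 and an effect of the doxycycline course cannot be told apart. Ppp1r14c, an inhibitor of protein phosphatase, had 0 reads at day 12 and stood at 19.8 and 20.8 CPM at day 0 and 4.47 and 2.74 CPM 8 days off (log2 fold -2.50, SE 0.29, edgeR adjusted p = 4.9e-05).

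Further genes with large falls were also low at day 12 already. Ppm1l, a protein phosphatase, and Cftr, the chloride channel, fell from 26.9 and 25.7 to 4.61 and 3.88 CPM and from 14.2 and 16.4 to 2.92 and 1.68 CPM, with 3.87 and 2.83 CPM at day 12. Kcnd1, a potassium channel, fell from 21.5 and 16.7 to 3.25 and 2.47 CPM, and Uros, an enzyme of haem synthesis, from 66.8 and 46.7 to 13.7 and 11.7 CPM, with 4.44 and 14.4 CPM at day 12. Tmem44, Evpl and Mybpc3 fell by 2.46, 2.19 and 2.18 on the log2 scale and stood at 2.48, 1.29 and 4.20 CPM at day 12. Gpr174 and Akr1c13 took another course, with day 12 means of 13.8 and 28.1 CPM, near day 0. Gpr174, a G protein-coupled receptor, went from 13.2 and 7.23 to 2.59 and 1.10 CPM (log2 fold -2.49, SE 0.32, edgeR adjusted p = 6.2e-05). Akr1c13, an aldo-keto reductase with close paralogs, went from 43.4 and 18.7 to 5.08 and 2.96 CPM (edgeR adjusted p = 0.00022, and 0.0848 in a fit of the 4 libraries alone). Day 0 A was the higher of the day 0 pair in Akr1c13, Plch2, Src, Ear1, Gpr174, Tmem44 and Uros.

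Several markers of eosinophils, basophils and mast cells fell below day 0. Of the eosinophil genes measured 45.5% were lower and 18.2% higher, against 16.9% and 16.2% of all genes. Ear1, an eosinophil ribonuclease from a family of near-identical genes, stood at 26.2 and 15.6 CPM at day 0, 90.3 CPM at day 12, 8.31 CPM 4 days off and 0.376 and 0.883 CPM 8 days off (log2 fold -5.04, SE 0.31, edgeR adjusted p = 1.9e-07). Il5ra, the interleukin-5 receptor chain of the eosinophil lineage, fell from 17.8 and 11.9 to 3.95 and 3.35 CPM (log2 fold -2.03, SE 0.19, edgeR adjusted p = 4.3e-06). Of 11 measured eosinophil genes 5 were lower, 2 higher and 4 not called; without 8 days off B, 3 were lower. Among the higher genes was the lipoxygenase gene Alox15, at 0.652 and 0.0738 CPM at day 0 (12 and 1 reads), 314 CPM at day 12 and 2.96 and 4.28 CPM 8 days off (log2 fold 3.15, SE 0.55, edgeR adjusted p = 0.00079). The list summed to 5226 and 2095 CPM at day 0 and to 2696 and 2214 CPM 8 days off. The day 0 libraries thus differed from each other more than the groups did, and whether cells of this lineage were unevenly present was not tested.

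In the basophil and mast cell list 9 of 14 measured genes were lower (64.3%, against 16.9% of all genes) and 1 higher. The median log2 fold of the list was -1.09. Mcpt8, a basophil protease, fell from 19.9 and 17.6 to 5.32 and 4.86 CPM (log2 fold -1.88, SE 0.15, edgeR adjusted p = 1.3e-06). Hdc, which makes histamine, fell from 288 and 190.2 to 78.8 and 65.2 CPM (log2 fold -1.73, SE 0.16, edgeR adjusted p = 4.1e-06). Cma1, the mast cell chymase, fell from 2.61 and 2.65 CPM (48 and 36 reads) to 0.188 and 0.0441 CPM (4 and 1 reads). In all 3 genes the groups did not overlap. Without day 0 A, 5 of the 14 were lower. The list summed to 3536 and 2771 CPM at day 0 and to 2425 and 2067 CPM 8 days off. In bulk RNA, fewer cells of a type and less RNA per cell cannot be told apart.

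Of 17 measured neutrophil maturation genes 4 were higher (23.5%, near the 16.2% of all genes), 1 lower and 12 not called. S100a8, the lower one, fell from 3.805 and 7.67 to 1.69 and 2.60 CPM (log2 fold -1.37, SE 0.34, edgeR adjusted p = 0.00754). Leaving out 1 library left 2 to 4 higher. Lcn2, a secondary granule protein, stood at 2.56 and 3.02 CPM at day 0, 174 CPM at day 12, 93.7 CPM 4 days off and 8.09 and 12.2 CPM 8 days off (log2 fold 1.88, SE 0.20, edgeR adjusted p = 1.5e-05), and 1.72 and 1.96 CPM 12 days off. Padi4, the enzyme that citrullinates histones in neutrophils, went from 22.4 and 21.8 to 44.9 and 53.1 CPM (log2 fold 1.15, SE 0.12, edgeR adjusted p = 1.4e-05), with 142 CPM at day 12. Padi4 stood at 78.6 and 96.9 CPM 4 days off and 31.4 and 36.0 CPM 12 days off. The level of both genes was thus lower at each later time off doxycycline, and by 12 days off Lcn2 was below both day 0 libraries. The list summed to 232.6 and 435.9 CPM at day 0 and 606.0 and 775.5 CPM 8 days off, against 4742 and 4391 CPM at day 12. Of 10 azurophil granule genes, which mark the promyelocyte, 4 were lower, a larger share than the 16.9% of all genes. Another 2, Ctsc and Cst7, were higher, with log2 folds of 0.32 and 0.46. Prtn3, a serine protease of that granule, fell from 365 and 538 to 162 and 166 CPM (log2 fold -1.46, SE 0.18, edgeR adjusted p = 4.2e-05), and Ctsg, another, from 191 and 256 to 85.7 and 96.2 CPM (log2 fold -1.30, SE 0.15, edgeR adjusted p = 3.1e-05).

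Of 30 measured genes for PU.1 and partner transcription factors, 9 were lower (30.0%, against 16.9% of all genes) and 2 higher (6.67%, against 16.2%). Leaving out 1 library gave 6 to 9 lower, and the other settings gave 2 to 5 higher. Cebpd, a CCAAT-binding factor, fell from 42.6 and 49.6 to 15.01 and 15.4 CPM (log2 fold -1.60, SE 0.15, edgeR adjusted p = 3.9e-06). Lmo2 and Lyl1, which form a progenitor complex, fell from 62.8 and 79.0 to 37.0 and 38.7 CPM (log2 fold -0.90, SE 0.11, edgeR adjusted p = 4e-05) and from 402 and 395 to 223 and 229.8 CPM (log2 fold -0.82, SE 0.12, edgeR adjusted p = 0.0002). Runx3 rose from 69.7 and 58.6 to 129.5 and 144 CPM (log2 fold 1.09, SE 0.12, edgeR adjusted p = 1.7e-05) and stood at 144 CPM at day 12. Of 11 stem and progenitor genes 5 were lower (45.5%) and 3 higher (27.3%). Hmga2, a chromatin protein of fetal stem cells, fell from 35.3 and 42.0 to 16.7 and 12.5 CPM (log2 fold -1.40, SE 0.17, edgeR adjusted p = 3.9e-05), after 5.13 CPM at day 12.

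Among markers of other blood lineages, calls stand beside a background of 16.9% lower and 16.2% higher over all genes. Of 13 macrophage and monocyte genes 4 were lower (30.8%) and 1, Csf1r, was higher, at 1.36 and 0.664 CPM at day 0 and 4.09 and 2.60 CPM 8 days off (log2 fold 1.66, SE 0.31, edgeR adjusted p = 0.001). Adgre1, the macrophage antigen F4/80, fell from 4.13 and 4.28 to 1.69 and 1.06 CPM (log2 fold -1.61, SE 0.24, edgeR adjusted p = 0.00021). The 5 measured erythroid genes had 3 lower and 0 higher, and without day 0 A none of the 5 was lower. The 7 megakaryocyte and platelet genes had 2 higher and 2 lower. The B cell list summed to 3.43 and 3.54 CPM at day 0 and 4.85 and 5.12 CPM 8 days off. The T and NK cell list summed to 279 and 365 CPM and to 240 and 253 CPM 8 days off, most of it from the granule genes Nkg7 and Prf1.

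Mitochondrially encoded transcripts took a smaller share of the library 8 days off. They made up 7.36% and 6.35% of all counts at day 0, and 2.79% and 2.84% 8 days off. The day 0 pair thus stood well above both libraries 8 days off, as above all others. Of the 13 protein-coding genes 12 were lower 8 days off (92.3%, against 16.9% of all genes), with a list median of -1.64. ND3, named after its value was seen, was not called. CYTB, a subunit of respiratory complex III, went from 10740.0 and 8566 to 2966 and 2991 CPM (log2 fold -1.70, SE 0.13, edgeR adjusted p = 7.7e-07). ND4 of complex I went from 3757 and 3115 to 1072 and 1070.0 CPM (log2 fold -1.68, SE 0.13, edgeR adjusted p = 9.1e-07), and ND1 from 8197 and 7041 to 3060.0 and 3178 CPM (log2 fold -1.29, SE 0.12, edgeR adjusted p = 3.7e-06). ATP8, which overlaps ATP6 so that their reads may be shared, had 109.5 and 297 CPM at day 0 and 48.1 and 28.0 CPM 8 days off (edgeR adjusted p = 0.00943, and 0.149 in a fit of the 4 libraries alone). Leaving the mitochondrially encoded genes out of the fit gave 2494 genes higher and 2069 lower, against 2217 and 2308 with them. What sets the day 0 libraries apart in this share was not tested.

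**Figure D3:**
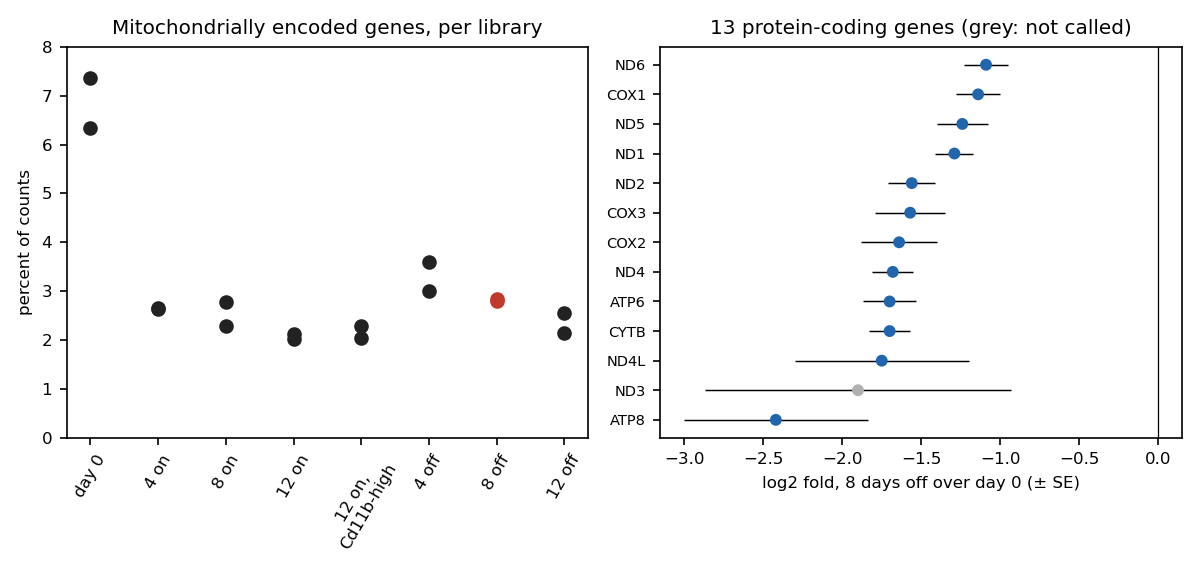
Left, the percent of all counts on mitochondrially encoded genes in each of the 16 libraries, by group, with 8 days off in red: the day 0 libraries are at 7.36% and 6.35% and all others between 2.02% and 3.59%. Right, the log2 fold with its SE of the 13 mitochondrial protein-coding genes, 8 days off over day 0, of which 12 are lower (blue) and ND3 is not called (grey).

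Immediate-early genes, which respond within minutes to growth factor and stress signals, were called lower in 10 of 23 measured genes (43.5%, against 16.9% of all genes). Of the rest 4 were higher (17.4% of the list, near the 16.2% of all genes) and 9 not called. The median log2 fold of all 23 was -0.58. Fos stood at 52.7 and 108 CPM at day 0, 205 CPM at day 12 and 11.2 and 7.46 CPM 8 days off (log2 fold -3.10, SE 0.41, edgeR adjusted p = 0.0002). For Fos, library B was the higher of the day 0 pair, and over the alternatives its adjusted p ran from 3.8e-11 to 0.0625, the highest with the 4 libraries alone. Jun, its partner in the AP-1 factor, fell from 382 and 431 to 161 and 147 CPM (log2 fold -1.40, SE 0.17, edgeR adjusted p = 4e-05). Dusp6, a phosphatase induced by ERK signalling that switches ERK off, fell from 120.1 and 128 to 44.7 and 38.5 CPM (log2 fold -1.58, SE 0.17, edgeR adjusted p = 1.4e-05), and Zfp36, which destabilises cytokine mRNA, from 46.1 and 42.7 to 15.9 and 12.2 CPM (log2 fold -1.66, SE 0.20, edgeR adjusted p = 3.7e-05). Dusp5 rose from 6.03 and 6.49 to 14.2 and 15.1 CPM (log2 fold 1.23, SE 0.16, edgeR adjusted p = 7.3e-05).

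Cytokine signalling genes were called in both directions. Cish, a feedback inhibitor induced by STAT5 downstream of interleukin-3, rose from 38.8 and 30.8 to 87.5 and 88.3 CPM (log2 fold 1.33, SE 0.13, edgeR adjusted p = 4.4e-06), with 153 CPM at day 12. Il1r2, a decoy receptor for interleukin-1, rose from 1.36 and 1.33 to 7.15 and 6.31 CPM (log2 fold 2.32, SE 0.26, edgeR adjusted p = 2e-05), with 16.8 CPM at day 12. Both genes lay above day 0 and below day 12. Of 28 receptor and feedback genes 8 were higher and 7 lower, and of 17 cytokines and chemokines 5 were higher and 5 lower. Tnfsf9, a co-stimulatory ligand, rose from 2.99 and 2.65 to 10.6 and 9.45 CPM (log2 fold 1.82, SE 0.21, edgeR adjusted p = 2.9e-05), and Csf1, macrophage colony-stimulating factor, fell from 50.5 and 55.2 to 36.0 and 36.9 CPM (log2 fold -0.53, SE 0.10, edgeR adjusted p = 0.00112).

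Biosynthetic genes were raised by small amounts. Of 40 ribosome biogenesis genes 22 were higher (55.0%, against 16.2% of all genes) and 0 lower, with a median log2 fold of 0.35. Ncl, nucleolin, rose from 572 and 592 to 1104 and 1208 CPM (log2 fold 0.99, SE 0.14, edgeR adjusted p = 0.00015), and the nucleolar helicase gene Ddx21 from 169 and 174 to 334 and 373 CPM (log2 fold 1.04, SE 0.17, edgeR adjusted p = 0.00039). Of 25 cholesterol synthesis genes 15 were higher and 2 lower. Hmgcs1, an early step, rose from 103 and 133 to 226 and 214 CPM (log2 fold 0.90, SE 0.12, edgeR adjusted p = 0.0001). All 3 genes had no overlap between the groups. The counts were less steady than the direction. Leaving out 1 library left 10 to 13 of the ribosome biogenesis genes higher, and without day 0 A 7 of the cholesterol genes were higher.

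Genes of cell division did not move as a block. Of 42 DNA replication genes 14 were lower (33.3%, against 16.9% of all genes) and 6 higher (14.3%, against 16.2%). The median log2 fold of the list was -0.26. Tyms and Tk1, which make thymidine nucleotides, fell from 110.4 and 113 to 68.0 and 70.9 CPM (log2 fold -0.69, SE 0.09, edgeR adjusted p = 0.00011) and from 54.5 and 54.9 to 32.7 and 35.5 CPM (log2 fold -0.68, SE 0.10, edgeR adjusted p = 0.00011). Mcm6, of the replicative helicase, rose from 347 and 405 to 614 and 690.4 CPM (log2 fold 0.80, SE 0.12, edgeR adjusted p = 0.00024). Of 38 mitosis genes 10 were higher (26.3%) and 8 lower (21.1%), and none of either list was past 2-fold. Without 1 library the replication genes called lower numbered 7 to 10, and the mitosis genes called higher 4 to 7. Among 25 p53 target genes 8 were higher (32.0%) and 6 lower (24.0%). Cdkn1a, the cell cycle inhibitor, rose from 30.2 and 24.1 to 95.3 and 63.1 CPM (log2 fold 1.54, SE 0.22, edgeR adjusted p = 0.00016), Trp53 itself from 97.4 and 80.8 to 183 and 162 CPM (log2 fold 0.95, SE 0.15, edgeR adjusted p = 0.00032), and Ddb2, a repair gene, fell from 25.5 and 25.3 to 10.4 and 12.1 CPM (log2 fold -1.17, SE 0.16, edgeR adjusted p = 9.5e-05).

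Genes of several stress responses were called, beside 16.2% higher and 16.9% lower over all genes. Of the oxidative stress genes measured 45.8% were higher and 8.33% lower. Among oxidative stress genes, Mt1 and Mt2, which bind zinc and other metals, rose from 209 and 192 to 521 and 427 CPM (log2 fold 1.24, SE 0.22, edgeR adjusted p = 0.00084) and from 58.1 and 56.8 to 198 and 143 CPM (log2 fold 1.57, SE 0.27, edgeR adjusted p = 0.00081). At day 12 they had stood at 99.5 and 14.1 CPM, below every day 0 library. Sod2, the mitochondrial superoxide dismutase, rose from 35.3 and 44.1 to 77.5 and 90.0 CPM (log2 fold 1.08, SE 0.13, edgeR adjusted p = 4.2e-05). Of 24 oxidative stress genes 11 were higher and 2 lower; without 8 days off A, 8 days off B or day 0 A, 6 were higher. Of 27 unfolded protein response and chaperone genes 8 were higher (29.6%) and 1 lower (3.7%). Among the higher was the mitochondrial chaperone gene Hspd1, which went from 173 and 167 to 306 and 326 CPM (log2 fold 0.89, SE 0.13, edgeR adjusted p = 0.00018). The ATF4 list, of genes that answer amino acid shortage, had 7 of 26 higher (26.9%) and 6 lower (23.1%). Stc2, described above, is one of the higher members. Another member, Slc7a3, a cationic amino acid transporter, fell from 15.3 and 15.2 to 4.28 and 3.58 CPM (log2 fold -1.96, SE 0.17, edgeR adjusted p = 3.3e-06).

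Of 9 MHC class II genes, which present peptides from outside the cell, 5 were higher (55.6%, against 16.2% of all genes) and 0 lower. H2-Ab1, a class II beta chain, stood at 6.85 and 6.34 CPM at day 0, 3.13 CPM at day 12, 50.8 and 38.5 CPM 8 days off and 105 and 62.8 CPM 12 days off (log2 fold 2.75, SE 0.35, edgeR adjusted p = 8.7e-05). Its partner chain H2-Aa and the chain gene H2-Eb1, both named after their values were seen, stood at or under 1.03 CPM in mean at all of these points and were not called. H2-Eb2, outside the list and also named afterwards, fell from 2.77 and 2.51 to 0.612 and 0.794 CPM. Without 8 days off B or without day 0 B, 3 of the 9 were higher. Of 35 interferon-stimulated genes 3 were higher, 7 lower and 25 not called. Stat2 and Irf9, which carry the type I interferon signal, fell from 263 and 235 to 155 and 152 CPM (log2 fold -0.70, SE 0.11, edgeR adjusted p = 0.00023) and from 26.7 and 22.3 to 14.1 and 13.6 CPM (log2 fold -0.83, SE 0.14, edgeR adjusted p = 0.00039).

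**Figure D4:**
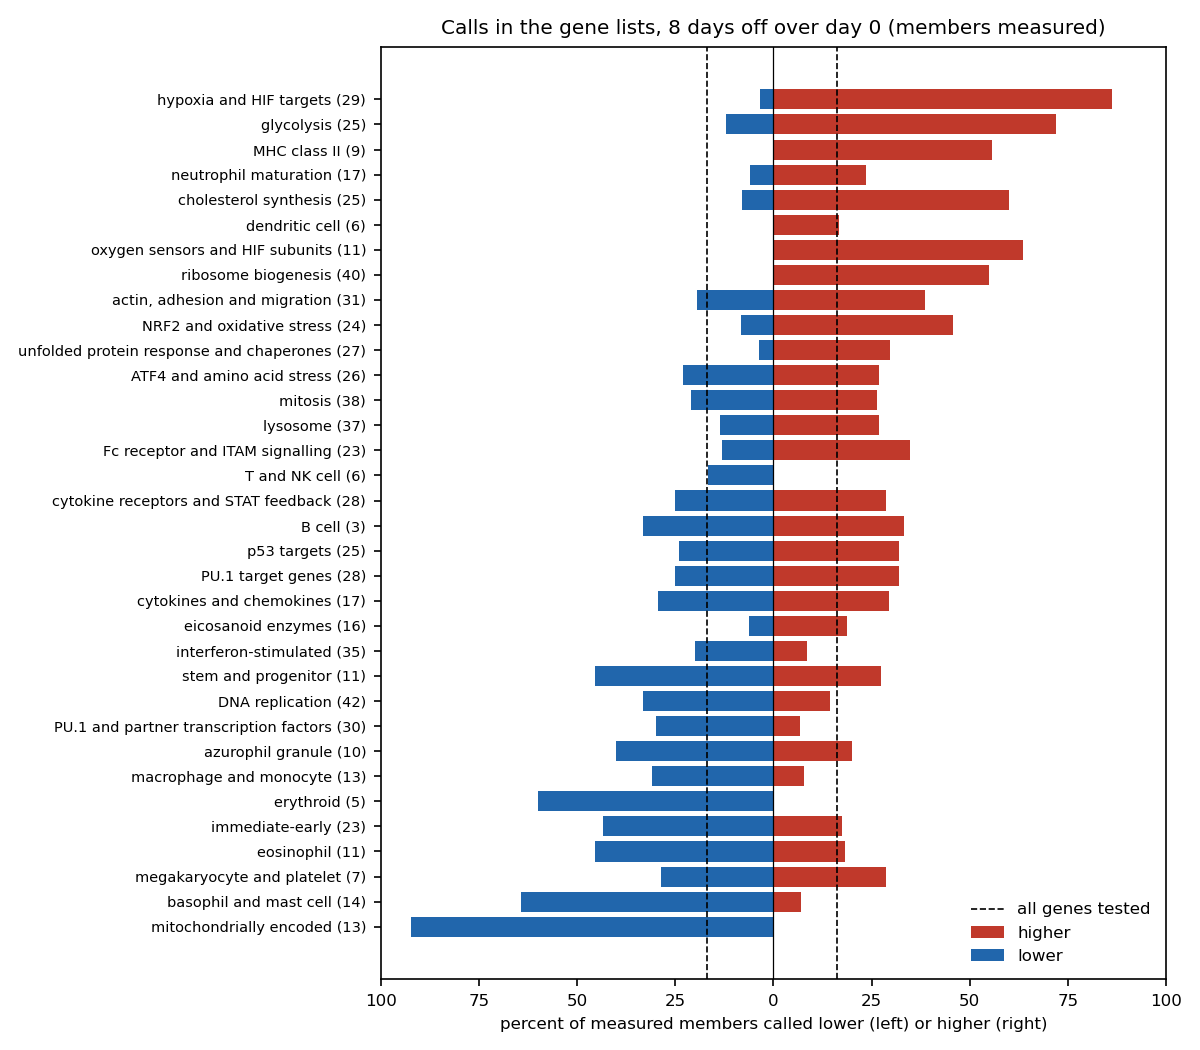
Percent of the measured members of each gene list (number in brackets) called higher (red, right) or lower (blue, left) 8 days off against day 0, with lists ordered by median log2 fold and dashed lines at the share of all genes tested (16.2% higher, 16.9% lower). The hypoxia list has 86.2% of its members higher and the mitochondrially encoded list 92.3% lower; genes can stand in several lists.

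Surface, lysosomal and lipid-mediator genes were called in both directions, beside 16.2% higher and 16.9% lower over all genes. Of 31 adhesion and migration genes 12 were higher (38.7%) and 6 lower (19.4%). Espn, an actin bundler, rose from 14.6 and 15.9 to 73.0 and 71.1 CPM (log2 fold 2.24, SE 0.25, edgeR adjusted p = 2.6e-05), Cd44 from 135 and 141 to 220.3 and 251 CPM (log2 fold 0.77, SE 0.14, edgeR adjusted p = 0.00071), and Anxa1, a membrane-binding protein, fell from 183 and 146 to 85.5 and 75.9 CPM (log2 fold -1.03, SE 0.14, edgeR adjusted p = 8e-05). Of 37 lysosomal genes 10 were higher (27.0%) and 5 lower (13.5%). Grn, the progranulin gene, rose from 125 and 153 to 208 and 250.5 CPM (log2 fold 0.72, SE 0.14, edgeR adjusted p = 0.00112) after 610.0 CPM at day 12. Of 23 Fc receptor and ITAM genes 8 were higher and 3 lower; Plcg2, a phospholipase of that pathway, rose from 128 and 119 to 192 and 214 CPM (log2 fold 0.72, SE 0.13, edgeR adjusted p = 0.00084), and Clec7a, the beta-glucan receptor, fell from 120.2 and 112 to 61.9 and 60.2 CPM (log2 fold -0.93, SE 0.16, edgeR adjusted p = 0.00052). Of 16 eicosanoid genes 3 were higher (18.8%, near the share of all genes) and 1 lower (6.25%). Ptgir, the prostacyclin receptor, rose from 16.6 and 18.7 to 33.4 and 32.9 CPM (log2 fold 0.91, SE 0.11, edgeR adjusted p = 5.1e-05), and Ptgs1, a cyclooxygenase, fell from 58.9 and 56.4 to 34.6 and 41.8 CPM (log2 fold -0.60, SE 0.12, edgeR adjusted p = 0.00147).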

How the data were processed

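Each library was deposited as unnormalised counts of reads by Entrez gene, per the file headers; gene lengths were not used. The mm10 build and the tools featureCounts, edgeR and limma are named in the submitters' processing notes, with neither roles nor versions. Every deposited gene exceeds 0.5 CPM in at least 3 libraries. Entrez numbers were matched to RefSeq symbols (GRCm38.p6) for 13216 of 13652 genes.

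Counts of all 16 libraries were fitted together (8 groups of 2, titles giving the groups) with TMM scaling and the robust quasi-likelihood F test of edgeR 4.0.16 (R 4.3.3). The test was two-sided, with 8 residual degrees of freedom and Benjamini-Hochberg adjustment over all genes. Tested on simulated counts of 13652 genes for 8 days off over day 0, the fit recovered 55.2% of genes changed 1.5-fold, 85.1% changed 2-fold and 100.0% changed 4-fold, with 4 false calls among 164. The simulated libraries shared 1 mean profile apart from 67, 67 and 66 changed genes of at least 1 CPM. These rates need not hold in the deposited counts, where far more genes were called. The standard error is the log2 fold over the square root of F.

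The 34 gene lists and the members named were chosen with earlier results of these data known, so list counts are descriptions. Named were Spi1, Itgam, Egln3, the 15 largest rises and 15 largest falls (called, at least 10 CPM in the higher group, groups not overlapping, no predicted genes), up to 4 called members of each list by adjusted p, and any hypoxia or oxygen-sensing gene. Not all are printed, and some are not reported here. The labels do not say that A and B pair the libraries, so no replicate term was used. A and B deviated together (correlation over 0.1) in 9 of 28 pairs of groups. The highest correlation was 0.43, and that of the pair compared here was 0.097. Alternatives were RLE scaling, library size alone, filterByExpr, a mean of at least 1 CPM, DESeq2 1.42.0, limma-voom (limma 3.58.1), the 4 libraries alone, a replicate block, omitting mitochondrial genes and omitting each library. Floors cover counting error only.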

Additional observations from a re-analysis of the deposited data

How the results depend on the processing

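The counts of 2217 genes higher and 2308 lower 8 days off than at day 0 kept within 1.5 times under RLE scaling (2453 and 2110), library size alone (2298 and 2214), DESeq2 (2427 and 1983), limma-voom (2195 and 2303), a mean of at least 1 CPM (2396 and 2008) and a fit restricted to the compared libraries (3172 and 2842). Adding a replicate block gave 2391 and 2479. Leaving out 1 of the 4 libraries gave 1262 to 1565 higher and 1271 to 1820 lower, from fits with fewer samples. Past 2-fold, leaving out 1 library gave 402 to 636 lower, against 619. The filterByExpr setting removed 0 genes. Of 2263 values of named genes under the alternatives, 2180 stayed on their side of the threshold, 72 lost their call and 11 gained it. Among values called in the main or the alternative fit 0 changed direction. Direction was not compared for values called in neither. In promoters cut to the 250 bases before the start, the PU.1 site was in 0 rather than 1 of the 19 PU.1 targets with an entry. The 12962801 counts of day 0 B limit what can be called among genes of a few reads.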

Other observations

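The genes named here were picked after their values were seen. MHC class I genes were higher 8 days off than at day 0. Of 17 measured H2 genes of class I, 12 were higher, 0 lower and 5 not called, with log2 folds of 0.41 to 2.87 among those called. Over all genes 16.2% were higher. The classical genes H2-K1 and H2-D1 stood at 778 and 743 CPM and 419 and 397 CPM at day 0, and at 1559 and 1646 CPM and 875 and 901 CPM 8 days off. Their day 12 means were 2775 and 1806 CPM, so 8 days off lay between. The course was not a steady return: their means were 2214 and 1269 CPM 4 days off and 2444 and 1216 CPM 12 days off. Those means lay above both libraries 8 days off. B2m, the light chain of class I, rose from 324 and 357 to 621 and 631 CPM (log2 fold 0.88, SE 0.13, edgeR adjusted p = 0.00022). Tap2, of the peptide transporter, fell from 289 and 285 to 199 and 206 CPM (log2 fold -0.50, SE 0.12, edgeR adjusted p = 0.00453). Tapbp rose (log2 fold 0.70, SE 0.14, edgeR adjusted p = 0.0013) and Tap1 was not called. Class I genes are alike in sequence, so reads may have been split between them.

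Neighbouring genes on chromosome 17 went nearly silent. Tcf19 (chr17:35512730-35516837 on GRCm38) had 103 and 41 reads at day 0, 107 and 127 at day 12, 29 and 31 at 4 days off, 0 and 2 at 8 days off and 1 and 0 at 12 days off (edgeR adjusted p = 2.5e-06). Cchcr1 (chr17:35517049-35531015), which lies next to it, had 118 and 69, then 39 and 55, 33 and 16, 5 and 2 and 1 and 0 reads (edgeR adjusted p = 9.3e-07). The nearest measured genes beyond them were not lower. H2-Q10 on one side was higher (log2 fold 1.27, edgeR adjusted p = 0.0179) and Vars2 on the other was not called (log2 fold -0.28, adjusted p = 0.0605 in edgeR).

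Some genes were at or near 0 reads at day 0. There were 15 genes with at most 3 reads over both day 0 libraries and at least 10 reads in each library 8 days off, a choice that itself fixes their direction. Of these, 3 had 0 reads at day 0, and Lsp1 already had 528 and 572 reads at day 12. Rbp4, the retinol-binding protein, had 0 reads at day 0 and at day 12, 26 and 37 reads 8 days off and 40 and 33 reads 12 days off. Against a floor of 3 reads over the day 0 group it was at least 15.4-fold higher. Stxbp6, a SNARE-binding protein, had 0 reads at day 0, 1 and 1 at day 12, 23 and 25 at 8 days off and 65 and 95 at 12 days off, at least 11.7-fold higher on the same floor. Bhlhe41, the paralog of the hypoxia gene Bhlhe40, had 1 and 1 reads at day 0, 0 and 1 at day 12 and 31 and 25 at 8 days off.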
